A study of Mus musculus with 2 samples.

Results

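The 10 genes described here govern hepatic glucose output and were followed through single nuclei of regenerating mouse liver. They are the enzymes G6pc, Pck1, Fbp1, Pcx, Sds, Tat, Got1 and Gpt2, the transporter Slc37a4 and the coactivator Ppargc1a. They were chosen by symbol as a pathway, with earlier results of these data known, and all 10 were found among the 32286 genes of the deposited table. The Cox10-/- group and the wild-type group held 1 liver each, so every value below describes 2 libraries, no test was run, and no spread between animals can be given. Per the labels, mice with a floxed Cox10 allele were given AAV8-Cre or AAV8-GFP, viral vectors that mainly reach hepatocytes, by a single retro-orbital injection 4 weeks before removal of 70% of the liver, on chow with free access to food. The labels do not say which virus each liver received, nor which exon is flanked, and the liver labelled wild-type is covered by the same treatment text, with no statement of its own on the floxed allele. Dissection came 4 days after surgery by the treatment protocol and 4 weeks after it by the sample characteristics, and the 2 were not reconciled here.

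Gluconeogenesis builds glucose from lactate, glycerol and amino acids, chiefly in liver and kidney, and keeps blood glucose up between meals. Amino groups are first removed by enzymes such as Sds, Tat, Got1 and Gpt2, pyruvate is lifted over the irreversible step of glycolysis by Pcx and Pck1, and Fbp1 and then G6pc with Slc37a4 remove the last phosphates. Glucagon, acting through cAMP and CREB, and glucocorticoids raise transcription of several of these genes in liver, Ppargc1a coactivates them, and insulin opposes this. In the liver lobule, hepatocytes near the portal vein are known for higher gluconeogenesis and amino acid breakdown than those near the central vein.

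Promoter sequence is shown for the genes on which the results turn: G6pc, Pck1, Ppargc1a and Gpt2. G6pc had the largest excess in the Cox10-/- library, and Pck1 and Ppargc1a hold a match to the short CREB site. Gpt2 alone of the 10 was not at least 1.5-fold lower in nuclei rich in Nrg1 and Areg than in hepatocyte-like Cox10-/- nuclei. Sequences are from RefSeq on GRCm38.p6, where 9 of the 10 genes were matched with 12 promoters (Sds was not matched). They run 5′ to 3′ on the strand of the gene and stop before the earlier of the RefSeq and GENCODE start sites. Capitals mark TGACG, the core of the CREB site, read on either strand.
G6pc, chr11:101367466-101367560, plus strand: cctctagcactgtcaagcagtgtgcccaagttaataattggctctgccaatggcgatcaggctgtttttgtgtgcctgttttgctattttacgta
Pck1, chr2:173152823-173153047, plus strand: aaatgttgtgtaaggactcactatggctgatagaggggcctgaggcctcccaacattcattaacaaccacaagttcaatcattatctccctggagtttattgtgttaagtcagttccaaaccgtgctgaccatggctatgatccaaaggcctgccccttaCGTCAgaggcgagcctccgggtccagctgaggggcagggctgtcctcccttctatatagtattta
Ppargc1a, chr5:51567727-51567975, minus strand: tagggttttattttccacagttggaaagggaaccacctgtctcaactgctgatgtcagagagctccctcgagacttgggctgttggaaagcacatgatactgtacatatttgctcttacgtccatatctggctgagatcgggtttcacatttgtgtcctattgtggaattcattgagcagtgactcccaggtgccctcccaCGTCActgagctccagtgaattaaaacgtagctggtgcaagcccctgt
Gpt2, chr8:85492326-85492575, plus strand: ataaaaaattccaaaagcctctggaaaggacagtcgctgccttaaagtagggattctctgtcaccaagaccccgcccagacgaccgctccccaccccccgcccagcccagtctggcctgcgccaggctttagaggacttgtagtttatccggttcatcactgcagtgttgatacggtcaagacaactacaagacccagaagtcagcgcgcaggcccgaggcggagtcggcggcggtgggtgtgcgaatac

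A set of 5 motifs was searched on both strands in the 250 bases before each of 32536 RefSeq start sites. TGACG was found in 17.9% of all promoters and the full CREB palindrome TGACGTCA, which contains TGACG, in 1.56%. The forkhead motif TGTTTAC was found in 3.17%, the glucocorticoid receptor motif TGTTCT in 16% and the C/EBP motif TTGCNNAA in 9.57%. Among the 10 genes TGACG matched in Pck1, at bases 90 to 86 before the RefSeq start on the opposite strand. It also matched in Ppargc1a, at bases 49 to 45 on the opposite strand, and in 2 of the 3 RefSeq promoters of Slc37a4. The other 4 motifs had no match in these windows, which says only that those letters are not there. Of the searched windows, the last 155 bases of G6pc, 25 of Pck1 and 1 of Ppargc1a are not printed above.

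After filtering, 3128 Cox10-/- nuclei and 1542 wild-type nuclei were kept, and the libraries stood apart in several ways. Hepatocyte-like nuclei made up 1159 (37.1%) of the Cox10-/- nuclei, with 4127422 UMIs (unique molecular identifiers, 1 per captured transcript) and a median of 2622 UMIs per nucleus. They made up 1493 (96.8%) of the wild-type nuclei, with 7074826 UMIs and a median of 4414. The libraries fell almost wholly into different clusters. Clusters 0, 5 and 12 held 634, 446 and 67 Cox10-/- nuclei, with 6 wild-type nuclei in cluster 0, and clusters 1, 2 and 6 held 628, 570 and 289 wild-type nuclei, with 2, 9 and 1 Cox10-/- nuclei. Cluster 5, called the shallow cluster here, held 446 of the Cox10-/- nuclei at a median of 1122 UMIs. Summed markers of other cell types were also higher in the Cox10-/- hepatocyte-like nuclei, with 203 against 53.1 CPM (a gene's UMIs scaled to the same total in every group) for 10 stellate genes, 73.7 against 7.07 CPM for 12 myeloid genes and 62.0 against 29.7 CPM for 12 endothelial genes. For 9 cholangiocyte genes the sums were 178 against 87.6 CPM and for 11 lymphoid genes 4.6 against 2.26 CPM, and Pdgfrb, Col1a1 and Col3a1 of the stellate list were at 0 in the wild-type hepatocyte-like nuclei. A list of 9 genes induced by tissue handling summed to 2247 CPM in Cox10-/- hepatocyte-like nuclei and 911 CPM in wild-type ones. The libraries shared 7 barcodes. Cox10 itself stood at 43.1 CPM (37.0 to 49.9) in Cox10-/- hepatocyte-like nuclei and 35.8 CPM (31.5 to 40.4) in wild-type ones, where brackets here and below are exact 95% intervals for counting error only. A 3′ tag outside a deleted exon does not check a deletion.

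All 10 genes were higher in hepatocyte-like nuclei than in the nuclei of other liver cell types. In the Cox10-/- library the excess over 1793 endothelial-, stellate-, myeloid-, lymphoid- and cholangiocyte-like nuclei was 8.95-fold (8.02 to 10.0) for Ppargc1a, 6.78-fold for G6pc, 6.44-fold for Sds and 3.53-fold for Pck1. Pcx was 5.81-fold higher, Got1 5.42-fold, Gpt2 5.27-fold, Tat 4.92-fold and Fbp1 3.39-fold, and the smallest excess was 2.64-fold, for Slc37a4. In that comparison 20.7% of all genes tested were at least 1.5-fold higher in the hepatocyte-like nuclei. Against 144 such other nuclei among all deposited wild-type nuclei, the excess ran from 1.69-fold for Sds to 1.98-fold for Pck1, where 25.2% of all genes were at least 1.5-fold higher. These 144 nuclei had a median of 16.3% mitochondrially encoded UMIs, whereas at most 10% was allowed in the hepatocyte-like nuclei they are compared with.

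The genes were therefore also counted in nuclei named as other cell types, where most of them would be expected to be low. Without the filter, the cluster named cholangiocyte-like was led in part by Nrg1 and Areg and held 190 Cox10-/- and 10 wild-type nuclei. Nuclei rich in both genes, left unnamed below, are thus part of this Cox10-/- set. Nrg1 and Areg summed to 190 CPM in it, against 47.4 CPM in the kept Cox10-/- nuclei of other cell types. Over the other cell types among all deposited nuclei, 3063 in Cox10-/- and 144 in wild-type, Pck1 stood at 684 CPM in Cox10-/- and 1100 CPM in wild-type, and G6pc at 342 and 519 CPM. Ppargc1a stood at 82.1 and 191 CPM, Tat at 545 and 953 CPM, Fbp1 at 204 and 323 CPM and Slc37a4 at 46.2 and 36.2 CPM. Among the kept Cox10-/- nuclei Pck1 ran from 438 CPM in cholangiocyte-like to 1361 CPM in lymphoid-like nuclei. In droplet data such counts can include free RNA from broken hepatocytes. In these 2 sets 9 of the 10 genes were at least 1.5-fold lower in the Cox10-/- library than in the wild-type one, where 17.4% of all genes were, and Slc37a4 was between at 1.28-fold. The median share of mitochondrially encoded UMIs was 9.16% in the Cox10-/- set and 16.3% in the wild-type one. This is the opposite direction to most of the hepatocyte-like values below.

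In hepatocyte-like nuclei, 4 of the 10 genes stood 1.5-fold or more higher in Cox10-/- than in wild-type: G6pc, Ppargc1a, Slc37a4 and Sds. Over all 11403 genes tested, 18.7% were this much higher and 14.4% this much lower. None of the 10 was at least 1.5-fold lower. The median log2 ratio was 0.48 over the 10 genes and -0.035 over all genes tested. A stricter rule, at least 2-fold with the whole interval beyond 1.5-fold, left G6pc alone, and 7.64% of all genes passed it in this direction. Over all kept nuclei, where the 2 libraries differ in their makeup of cell types, none of the 10 passed and the log2 ratio of G6pc was 0.36. Over hepatocyte-like nuclei G6pc and Slc37a4 passed 1.5-fold under every other scaling and filter run. Ppargc1a was short of it at 0.55 with nuclei thinned to 1000 UMIs and 0.56 as a mean over nuclei. Sds was short of it, at 0.28 to 0.58, with no filter beyond the deposited table, which gave the lowest value, with thinning, as a mean over nuclei, with TMM or DESeq2 factors, with totals without mitochondrially encoded genes and at both other clustering resolutions.

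G6pc, the catalytic subunit of glucose-6-phosphatase (ENSMUSG00000078650.2, chr11:101367561-101377903 on GRCm38), releases free glucose at the last step. It stood at 2478 CPM (2430 to 2526) in hepatocyte-like nuclei of the Cox10-/- liver and 1003 CPM (980 to 1027) in those of the wild-type liver, from 10226 and 7098 UMIs. The ratio was 2.47 (2.40 to 2.55), higher than that of 93.6% of all genes tested. The median nucleus held 4 UMIs of G6pc in both libraries, at unequal depth, whereas the nucleus at the 90th percentile held 24 UMIs in Cox10-/- and 10 in wild-type. The highest single nucleus held 73 and 24 UMIs. Slc37a4, which carries glucose 6-phosphate into the endoplasmic reticulum to that enzyme (chr9:44396852-44402968), had far fewer UMIs, 461 and 455. It stood at 112 CPM (102 to 122) in Cox10-/- and 64.3 CPM (58.5 to 70.5) in wild-type nuclei, a ratio of 1.74 (1.52 to 1.98).

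The 3 enzymes of the 10 genes that act between pyruvate and fructose 6-phosphate differed less. Pcx, the mitochondrial pyruvate carboxylase (chr19:4510472-4621752), stood at 677 CPM (652 to 703) in Cox10-/- and 675 CPM (656 to 694) in wild-type nuclei, a ratio of 1.0 (0.957 to 1.05). Pck1, which turns oxaloacetate into phosphoenolpyruvate in the cytosol (chr2:173153048-173159273), stood at 2548 CPM (2499 to 2597) and 2174 CPM (2140 to 2209), a ratio of 1.17 (1.14 to 1.20). Fbp1, the fructose-1,6-bisphosphatase (chr13:62864753-62888282), stood at 667 and 623 CPM, a ratio of 1.07 (1.02 to 1.12). For Pcx the interval spans equal levels, and for Pck1 and Fbp1 it lies above 1 but within 1.5-fold.

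The amino acid enzymes lay between these. Sds, serine dehydratase (chr5:120476526-120483932), stood at 816 CPM (789 to 845) in Cox10-/- and 541 CPM (524 to 558) in wild-type nuclei, a ratio of 1.51 (1.44 to 1.58), just past 1.5-fold. Tat, tyrosine aminotransferase and a classic glucocorticoid-induced gene (chr8:109990437-109999803), stood at 2765 CPM (2715 to 2816) and 1879 CPM (1847 to 1911), a ratio of 1.47 with an upper bound of 1.51. For these 2 genes the interval spans the limit, so counting error alone leaves their side of it unsettled. Got1, the cytosolic aspartate aminotransferase (chr19:43499752-43524605), had a ratio of 1.31 (1.26 to 1.36), with 1209 and 922 CPM. Gpt2, the mitochondrial alanine aminotransferase (chr8:85492576-85527560), had a ratio of 1.32 (1.26 to 1.38), with 796 and 605 CPM.

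Ppargc1a encodes PGC-1α, a coactivator of mitochondrial biogenesis and of fasting gene expression in liver (chr5:51454250-51567726). It stood at 690 CPM (665 to 716) in Cox10-/- hepatocyte-like nuclei and 369 CPM (355 to 383) in wild-type ones, a ratio of 1.87 with a lower bound of 1.77. This exceeded the ratio of 88.5% of all genes tested. With 1 liver in each group, no ratio here can be set against the difference between 2 livers of the same genotype.

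**Figure D1:**
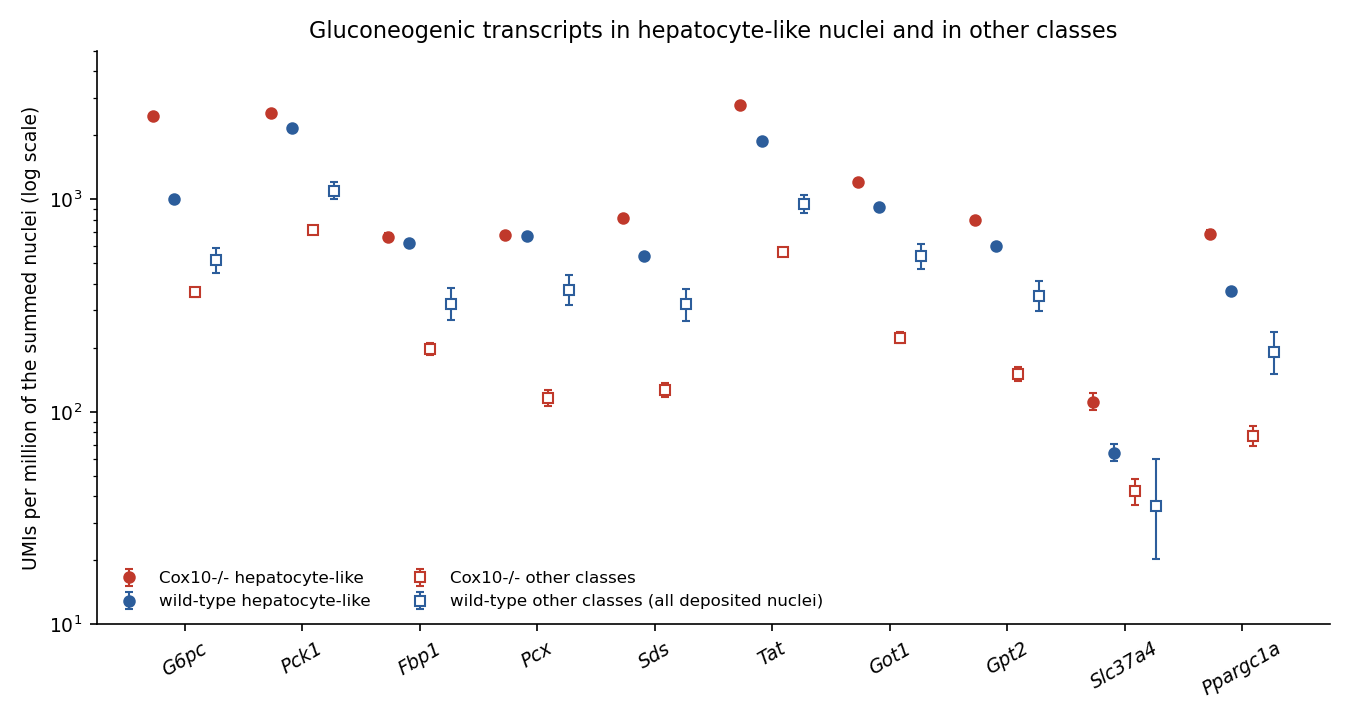
CPM of the 10 genes (log axis) in hepatocyte-like nuclei (filled) and in the nuclei of other cell types (open) of the Cox10-/- and wild-type libraries, the Cox10-/- ones from kept nuclei and the wild-type other cell types from all deposited nuclei; bars are exact 95% Poisson intervals, which cover counting error only. G6pc stands at 2478 CPM in Cox10-/- and 1003 CPM in wild-type nuclei of the hepatocyte-like class, while Pcx stands at 677 and 675 CPM.

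**Figure D2:**
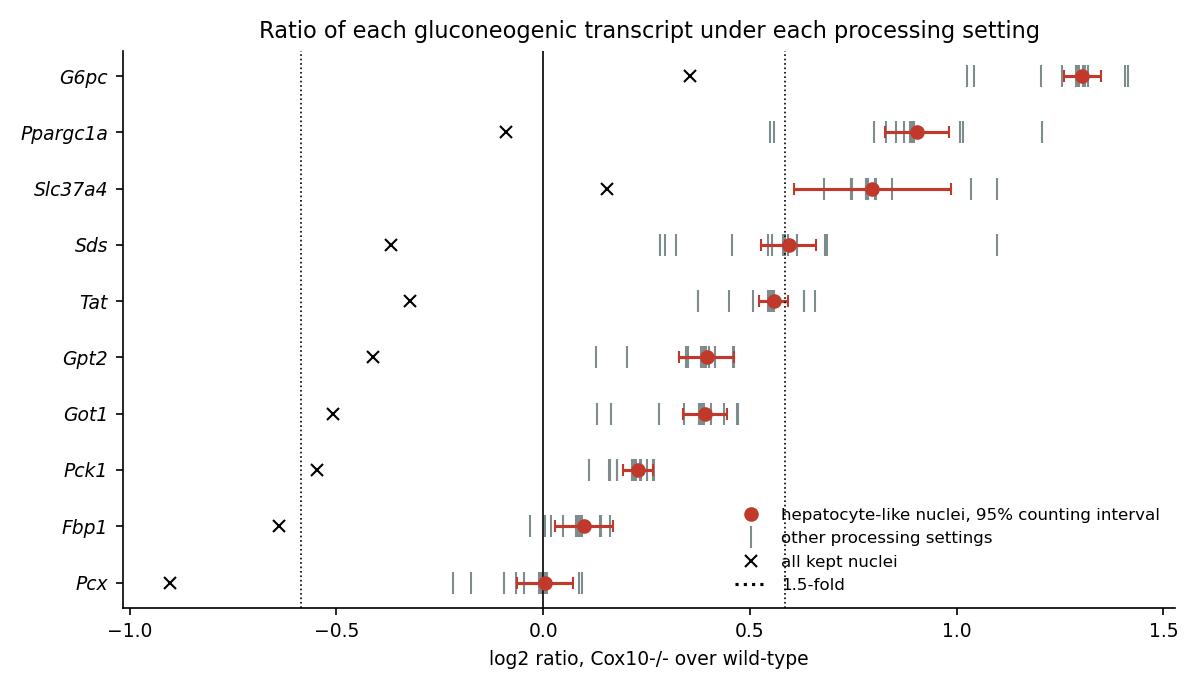
Log2 ratio of each gene, Cox10-/- over wild-type: circles are the values over hepatocyte-like nuclei with 95% counting intervals, grey ticks the values under the other processing settings, crosses the values over all kept nuclei, and dotted lines 1.5-fold either way. G6pc lies at 1.30 over hepatocyte-like nuclei and at 0.36 over all kept nuclei, and Pcx at -0.90 over all kept nuclei.

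The excess was not spread evenly over the Cox10-/- nuclei. In the shallow cluster, led by the acute-phase genes Saa1 and Lrg1, G6pc stood at 1173 CPM (1083 to 1268), 2.28-fold lower (2.10 to 2.47) than in the other Cox10-/- hepatocyte-like nuclei and close to the 1003 CPM of the wild-type library. Ppargc1a stood there at 324 CPM, 2.3-fold lower (1.97 to 2.70) than in the other Cox10-/- nuclei. Of the 10 genes 6 were at least 1.5-fold lower in the shallow cluster, where 42.4% of all genes were. Summed stellate, myeloid and endothelial markers stood at 384, 209 and 147 CPM in that cluster. In the other Cox10-/- hepatocyte-like nuclei they stood at 176, 53.5 and 49.3 CPM. Cholangiocyte and lymphoid sums were lower in the cluster, at 160 against 180 CPM and 3.72 against 4.74 CPM. Hepatocyte markers summed to 80253 against 38101 CPM. In cluster 0, the largest with 634 nuclei, G6pc stood at 2675 CPM and Ppargc1a at 757 CPM. Cluster 12, with 67 nuclei led by Meg3, Rian and the pericentral genes Slc1a2 and Lgr5, held 2465 CPM of G6pc but 52.1 CPM of Sds. Among the 3 wild-type clusters G6pc kept within 983 to 1025 CPM, and Ppargc1a ran from 277 to 415 CPM.

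The share of mitochondrially encoded UMIs also differed between the libraries, with medians of 5.74% in Cox10-/- and 7.85% in wild-type hepatocyte-like nuclei. Among nuclei of up to 5%, 516 in Cox10-/- and 90 in wild-type, G6pc stood at 2699 and 1104 CPM, a ratio of 2.44. Ppargc1a stood at 770 and 333 CPM, a ratio of 2.31, and 5 of the 10 genes were at least 1.5-fold higher, where 19.1% of all genes were. Among nuclei of 5 to 10%, 643 and 1403, the ratio of G6pc was 1.95 and that of Slc37a4 1.72. There Ppargc1a had a ratio of 1.32, Sds 1.25 and Pcx 0.771, and the count was 2, where 22.1% of all genes were higher. The Cox10-/- nuclei of that range were shallow, with a median of 1235 UMIs against 4299. G6pc and Slc37a4 were thus above 1.5-fold in both ranges, and Ppargc1a and Sds in the lower range only. Sums of ribosomal protein transcripts (79 genes) stood at 5745 CPM in Cox10-/- hepatocyte-like nuclei and 2189 CPM in wild-type ones, and at 16474 CPM in the shallow cluster. The part of depth, handling genes and other cell types' RNA in these ratios was not tested.

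Shares of positive nuclei were compared after each nucleus was thinned to 1000 UMIs, which left out 44 Cox10-/- nuclei and 1 wild-type nucleus. G6pc was found in 78.8% (76.3 to 81.2) of Cox10-/- and 56.3% (53.7 to 58.8) of wild-type hepatocyte-like nuclei. In the other cell types of the Cox10-/- library, at a median of 2456 UMIs before thinning, it was found in 26.1%, and in those of the wild-type library, 144 of all deposited nuclei at a median of 2398.5 UMIs, in 31.2%. Ppargc1a was found in 41.1% (38.2 to 44.0) and 30.2% (27.9 to 32.6) of hepatocyte-like nuclei, against 6.49% and 16.0% of the other nuclei. Both genes were thus found in a larger share of hepatocyte-like nuclei than the background of their own library. Slc37a4 was found in 10.9% (9.17 to 12.9) and 5.23% (4.15 to 6.48). The wild-type share lay close to its background of 4.86%, so that share alone cannot be read as expression. By CPM the wild-type hepatocyte-like nuclei stood 1.78-fold (1.07 to 3.20) above the other nuclei, which held only 15 UMIs of Slc37a4. Pck1 was found in 89.3% and 84.9%, and Tat in 88.0% and 81.2%, with backgrounds of 41.3 to 51.4% for both.

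Without thinning the shares were lower in the shallower Cox10-/- library for every gene but Slc37a4: for G6pc 87.3% against 88.8%, and for Ppargc1a 66.1% against 73.1%. Thinned, 7 of the 10 genes were found in a larger share of Cox10-/- nuclei. For Fbp1 (44.1% and 45.7%), Pcx (44.4% and 47.6%) and Gpt2 (45.7% and 47.0%) the thinned share was smaller in Cox10-/- while the CPM was not, so no order is read. A thinned Cox10-/- hepatocyte-like nucleus held UMIs of 5.45 of the 10 genes on average and a wild-type one of 4.93.

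The position of hepatocytes along the lobule was rebuilt from 12 periportal and 14 pericentral marker genes, none of them among the 10. Each library was cut into periportal, middle and pericentral tertiles of this score, which are ranges of a score and not cell types: 94 and 91 Cox10-/- nuclei and 141 and 110 wild-type nuclei lay within 0.1 SD of the limits. Sds had the steepest gradient of the 10 in both libraries. It stood at 1374 CPM in periportal, 567 in middle and 173 in pericentral Cox10-/- nuclei, and at 905, 560 and 165 CPM in wild-type nuclei. The periportal to pericentral ratio was 7.95 (6.87 to 9.23) in Cox10-/- and 5.47 (4.91 to 6.11) in wild-type. Thinned, Sds was found in 66.3% of periportal and 23.6% of pericentral Cox10-/- nuclei, and in 54.7% and 16.1% of wild-type nuclei. The share in other cell types was 10.7% in Cox10-/- and 20.1% in wild-type, so the pericentral wild-type share is no more than background.

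In the Cox10-/- library 3 of the 10 genes were at least 1.5-fold higher in the periportal tertile, where 9.8% of all genes were, and none was lower, where 12.4% were. Besides Sds these were Got1, with 1518 CPM in periportal and 777 CPM in pericentral nuclei, a ratio of 1.95 (1.81 to 2.11), and Fbp1, with 788 and 492 CPM, a ratio of 1.6 (1.45 to 1.77). All 10 ratios were above 1, from 1.19 for Slc37a4, whose interval starts at 0.944, and their median log2 was 0.44, against 0.016 over all genes tested. With 1 limit of the score for both libraries, which left 7 pericentral Cox10-/- nuclei, Ppargc1a turned to a log2 of -0.25 and Gpt2 was level at 0.0026, and with tertiles set after thinning Pcx stood at 0.019. G6pc had 2826 CPM in periportal and 2080 CPM in pericentral nuclei, a ratio of 1.36 (1.29 to 1.43), and Ppargc1a 764 and 629 CPM, a ratio of 1.21. Pck1 had 2886, 2484 and 2069 CPM from periportal to pericentral, and Tat had 3154, 2577 and 2332 CPM. Pcx had 738, 660 and 598 CPM, a ratio of 1.23, and Gpt2 898, 715 and 715 CPM, a ratio of 1.26, so their fall was shallow.

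In the wild-type library Sds alone of the 10 was at least 1.5-fold higher in the periportal tertile, where 7.95% of all genes were, and none was lower, where 6.27% were. Ppargc1a came next, with 444 CPM in periportal and 300 CPM in pericentral nuclei, a ratio of 1.48 (1.34 to 1.63). Got1, with 944 and 899 CPM, had a ratio of 1.05, and Pck1, with 2282, 2225 and 2017 CPM from periportal to pericentral, one of 1.13. Fbp1, with 673, 630 and 567 CPM, had a ratio of 1.19. The remaining enzymes had no order along the score: Tat stood at 1873, 1905 and 1859 CPM, Pcx at 658, 685 and 681 CPM and Gpt2 at 594, 582 and 639 CPM. G6pc was nearly level, with 997 CPM in periportal and 1050 CPM in pericentral nuclei, a ratio of 0.95 (0.898 to 1.01). The difference between the gradients of the 2 libraries was not tested.

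Depth moved with the zones in the Cox10-/- library, where median UMIs per nucleus were 4288.5, 1815 and 1457 from periportal to pericentral, while in wild-type they were 4369, 4394 and 4440. With the shallow cluster left out and the tertiles cut again, at medians of 5299 and 3948, Sds had a ratio of 10.3 (8.79 to 12.1), Got1 1.89 and Fbp1 1.63, and the count stayed at 3, where 8.49% of all genes passed. G6pc had a ratio of 1.25 there, with 2926 and 2336 CPM. Of the list genes, Uroc1, urocanase of histidine breakdown, stood at 377 CPM in periportal and 169 CPM in pericentral Cox10-/- nuclei and at 393 and 202 CPM in wild-type ones. Aqp9, the glycerol channel, ran the other way, with 137 and 294 CPM in Cox10-/- and 153 and 334 CPM in wild-type nuclei. Both thus kept their direction in either library.

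**Figure D3:**
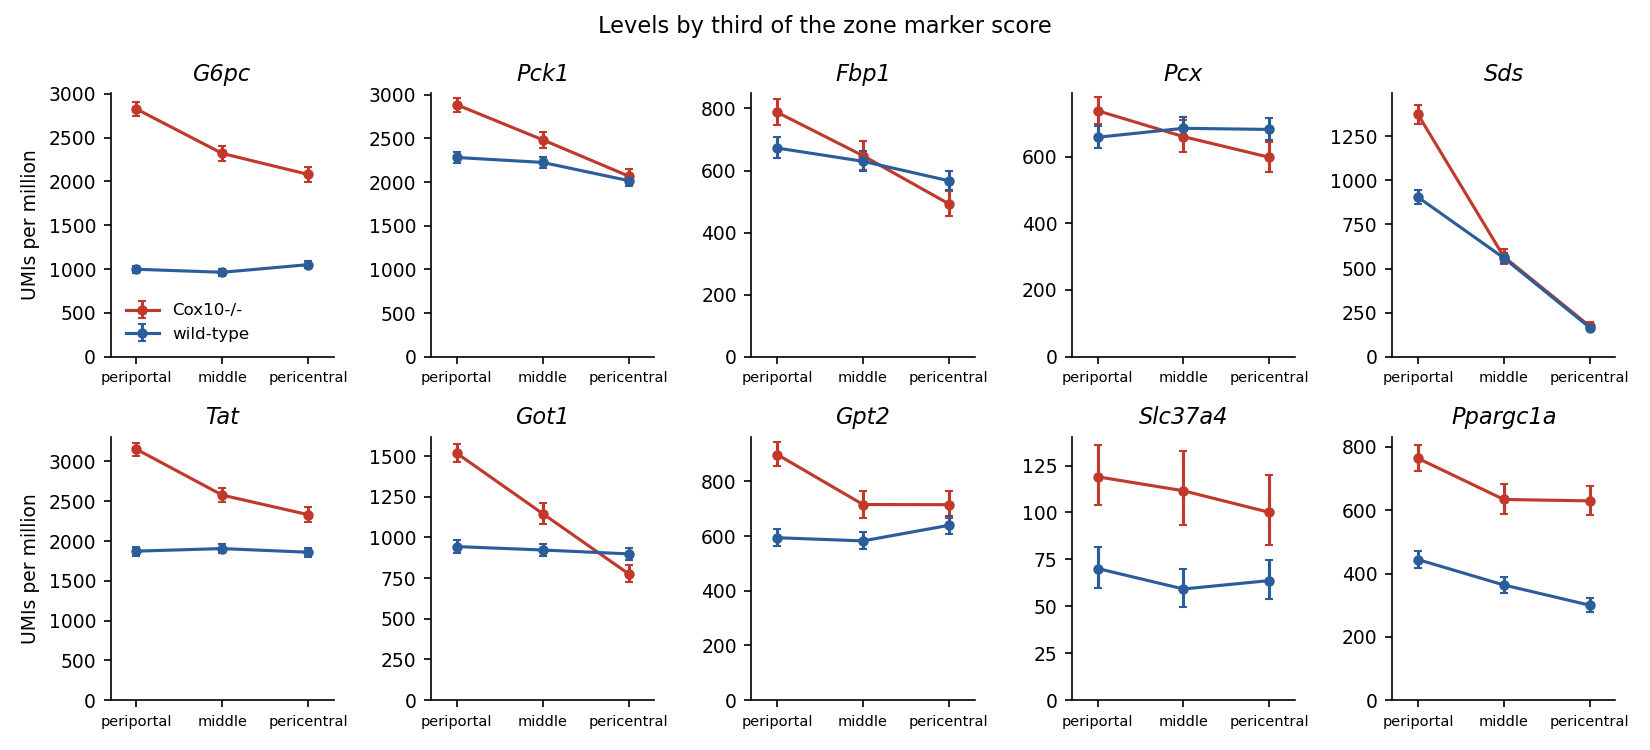
Levels in CPM of each of the 10 genes in the periportal, middle and pericentral tertile of the hepatocyte-like nuclei, Cox10-/- and wild-type; bars are exact 95% Poisson intervals and lines join the tertiles of a library. Sds reaches 173 CPM in pericentral Cox10-/- nuclei and 165 CPM in pericentral wild-type nuclei.

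Compared tertile by tertile, 7 of the 10 genes were at least 1.5-fold higher in Cox10-/- than in wild-type periportal nuclei, where 15.2% of all genes were: G6pc at 2.83-fold (2.70 to 2.98), Ppargc1a at 1.72-fold, Slc37a4 at 1.70-fold, Tat at 1.68-fold, Got1 at 1.61-fold, Sds at 1.52-fold and Gpt2 at 1.51-fold. In the middle tertile the count was 3, where 19.3% of all genes passed, and in the pericentral tertile also 3, where 20.1% did. In the pericentral tertile G6pc was 1.98-fold higher, Ppargc1a 2.10-fold and Slc37a4 1.57-fold. Sds was nearly level there at 1.05-fold, and Got1 had a ratio of 0.864. The same 3 genes, G6pc, Ppargc1a and Slc37a4, passed in every tertile. The tertiles were cut within each library, so they are not matched positions. The 14 pericentral markers summed to 1270 CPM in periportal Cox10-/- nuclei and 731 CPM in periportal wild-type ones. Median UMIs per nucleus were 4288.5 in periportal and 1457 in pericentral Cox10-/- nuclei, against 4369 and 4440 in wild-type. The part of depth and position in these counts was not tested.

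A small set of Cox10-/- nuclei was rich in Nrg1 and Areg, ligands of the EGF receptor family. A nucleus was counted when it held at least 1 UMI of each and both together made up at least 0.1% of its UMIs. This gave 43 Cox10-/- nuclei with 224288 UMIs, a median of 5381 per nucleus and a median of 2.97% mitochondrially encoded UMIs, against 1 wild-type nucleus. Of the 43, 42 lay in cluster 10, which was left unnamed, and 1 in the hepatocyte-like cluster 0. The words "other hepatocyte-like nuclei" below mean those outside the rule and do not class the rich nuclei as hepatocytes. Cps1, a hepatocyte enzyme of the urea cycle, stood at 1396 CPM in them, 9743 CPM in the other Cox10-/- hepatocyte-like nuclei and 1752 CPM in the other cell types. Ahsg, a plasma protein gene, stood at 2452, 2557 and 1134 CPM. The 14 hepatocyte markers, which include both, summed to 19600, 43619 and 29013 CPM, so the sum in the rich nuclei was the lowest. Bicc1, on the cholangiocyte list, stood at 219, 11.6 and 249.6 CPM, while Krt19, Krt7 and Cftr of that list were at 0 in the rich nuclei. The 9 cholangiocyte genes summed to 477, 176 and 472 CPM. These markers do not give the nuclei a cell type name.

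In these nuclei 9 of the 10 genes were at least 1.5-fold lower than in the other Cox10-/- hepatocyte-like nuclei, where 27.6% of all genes were this much lower, and none was higher, where 30.7% were. All 9 also passed the stricter rule, which 4.8% of all genes did. A gene with few UMIs in the other nuclei cannot pass that rule, so its share is held down by genes of low level. G6pc stood at 446 CPM (363 to 542) in the rich nuclei and 2481 CPM in the others, 5.57-fold lower (4.57 to 6.85). Pck1 stood at 343 CPM (271 to 429) and 2550 CPM, 7.43-fold lower (5.94 to 9.42). Sds, from 9 UMIs, was 20.4-fold lower (10.7 to 44.6), and Slc37a4, from 3 UMIs, 8.36-fold lower (2.84 to 40.7). The others of the 9 ran from 4.31-fold lower for Ppargc1a, with 161 and 691 CPM, to 6.32-fold lower for Got1, with 192 and 1211 CPM. Between them lay Tat, with 575 and 2769 CPM, 4.81-fold lower (4.05 to 5.77), Fbp1, with 138 and 668 CPM, 4.83-fold lower, and Pcx, with 134 and 678 CPM, 5.07-fold lower. Of the 43 rich nuclei, 41.9% held a UMI of G6pc and 32.6% one of Pck1 after thinning, against 26.1% and 50.4% of the other cell types. The median log2 ratio of the 10 genes was -2.41, against 0.057 over all genes tested.

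Gpt2 was the exception. It stood at 758 CPM (648 to 881) in the rich nuclei and 796 CPM in the other Cox10-/- hepatocyte-like nuclei, a ratio of 0.952 (0.811 to 1.11), from 170 UMIs. Thinned, it was found in 44.2% (29.1 to 60.1) of the 43 rich nuclei, 45.7% of the other hepatocyte-like nuclei and 13.2% of the other cell types. Its level in the rich nuclei was 5.01-fold higher (4.21 to 5.93) than in those other cell types, the most of the 10 genes.

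Set against the other cell types of the same library, several of the 10 genes were near the level found there. G6pc was 1.22-fold higher in the rich nuclei, Pcx 1.15-fold and Tat 1.02-fold, with Got1 at a ratio of 0.860. Ppargc1a was 2.08-fold higher, with an upper bound of 2.94. Pck1 was 2.10-fold lower, with an upper bound of 2.67, and Sds 3.16-fold lower. In that comparison 2 of the 10 genes were at least 1.5-fold higher, where 26.9% of all genes were, and 3 lower, where 40.2% were. Over all 91 Cox10-/- nuclei of cluster 10 the values were alike, with 569 CPM of G6pc, 404 CPM of Pck1, 205 CPM of Ppargc1a and 749 CPM of Gpt2, and the same count of 9 lower than other hepatocyte-like nuclei, where 23.4% of all genes were.

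**Figure D4:**
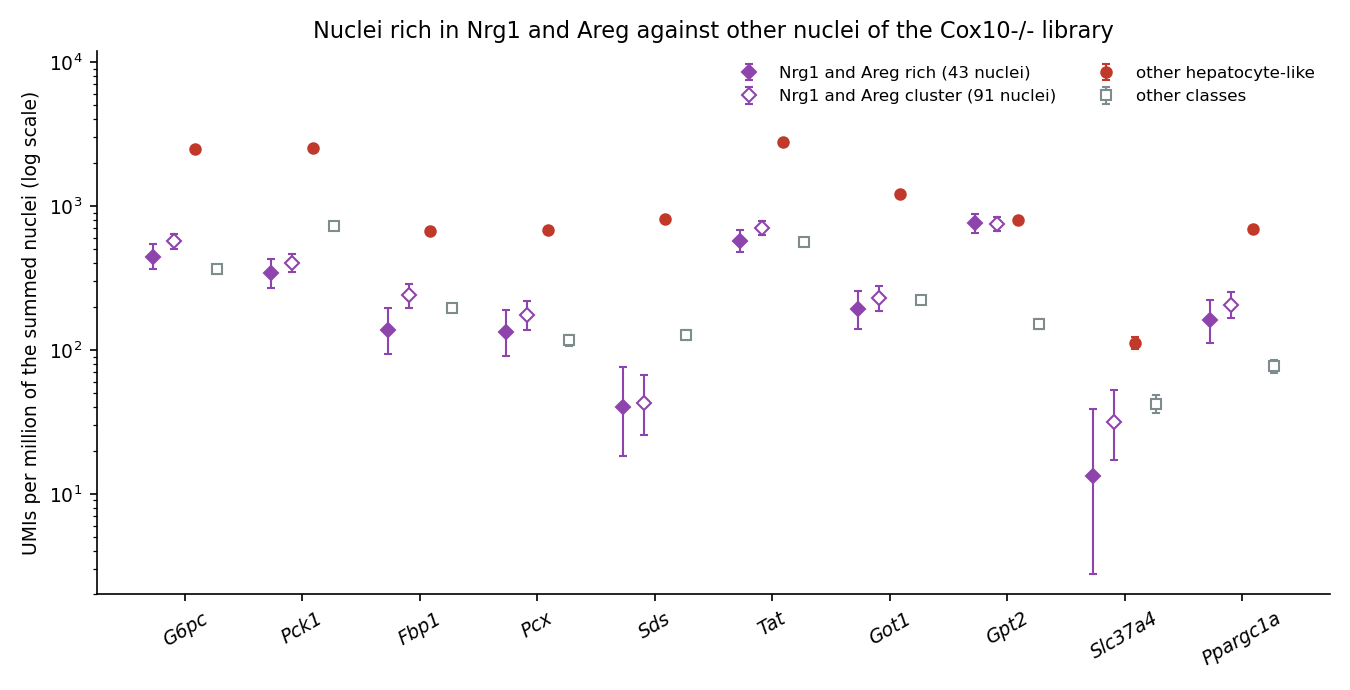
CPM of the 10 genes (log axis) in the 43 Nrg1 and Areg rich Cox10-/- nuclei, the 91 Cox10-/- nuclei of cluster 10, the other Cox10-/- hepatocyte-like nuclei and the Cox10-/- nuclei of other cell types; bars are exact 95% Poisson intervals. Gpt2 stands at 758 CPM in the rich and 796 CPM in the other hepatocyte-like nuclei, whereas Pck1 stands at 343 and 2550 CPM.

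Other genes of the route were counted from lists that had been written down by function, with earlier results of these data known. Of 16 further enzymes and carriers of the gluconeogenic route with enough UMIs, 9 were at least 1.5-fold higher in Cox10-/- hepatocyte-like nuclei and none was lower, with a median log2 of 0.75, where 18.7% of all genes were higher and 14.4% lower. They included enzymes shared with glycolysis: Pgam1, phosphoglycerate mutase, at 33.2 CPM in Cox10-/- and 9.05 CPM in wild-type nuclei, 3.67-fold (2.71 to 5.02), Gpi1, glucose-6-phosphate isomerase, at 176 and 52.3 CPM, 3.37-fold (2.97 to 3.83), and Gapdh at 64.4 and 27.7 CPM, 2.33-fold. Within Cox10-/-, 9 of 16 genes of this list were higher in the shallow cluster than in the other hepatocyte-like nuclei, and 3 lower. There 22.5% of all genes were higher and 42.4% lower. Among nuclei of up to 5% mitochondrially encoded UMIs, 7 of 16 were higher in Cox10-/- than in wild-type and 1 lower. In that range 19.1% of all genes were higher and 14% lower. The part of the shallow cluster in this excess was not tested. Of 7 genes of the opposing glycolytic steps 3 were at least 1.5-fold lower, where 14.4% of all genes were, and 1 was higher, where 18.7% were. Those lower included Pklr, liver pyruvate kinase, at 57.4 and 145 CPM, 2.53-fold lower, and Pfkfb1 at 138 and 223 CPM, 1.62-fold lower. Pfkfb3, an isoform that favours glycolysis, was 2.09-fold higher.

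Of 13 genes of substrate entry 5 were at least 1.5-fold higher and 1 lower, beside 18.7% and 14.4% of all genes. Slc38a2, a transporter of small neutral amino acids, stood at 903 CPM in Cox10-/- and 401 CPM in wild-type nuclei, 2.25-fold higher, and Ldha, lactate dehydrogenase A, at 136 and 62.5 CPM, 2.18-fold higher. Glycerol kinase, Gk, stood at 201 and 312 CPM, 1.55-fold lower. Of 14 genes of amino acid breakdown 3 were higher, a share near the 18.7% of all genes, and none lower, beside 14.4% of all genes. Those higher included Tdo2, which opens tryptophan breakdown, at 2342 and 1399 CPM.

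Of 24 regulators 4 were at least 1.5-fold higher and 2 lower, with a median log2 of 0.055. As a share of the list neither count exceeds that of all genes, 18.7% higher and 14.4% lower. Nr4a1, an immediate early nuclear receptor, stood at 103 CPM in Cox10-/- and 14.3 CPM in wild-type nuclei, 7.23-fold higher (5.81 to 9.07). Sik1, a kinase that restrains CREB coactivators, stood at 110 and 25.9 CPM, 4.26-fold higher (3.58 to 5.09), and Cebpb, a transcription factor of the acute phase and of Pck1, was 2.35-fold higher (2.17 to 2.54). Nr3c1, the glucocorticoid receptor, was 1.54-fold lower. Foxo1, the factor that insulin signalling restrains, stood at 619 and 472 CPM, Creb1 at 82.4 and 83.7 CPM and Hnf4a at 296 and 328 CPM, all within 1.5-fold. Among 11 readouts of fasting, insulin and glucocorticoid signals 4 were higher, where 18.7% of all genes were, and none lower, where 14.4% were. These were Pdk4, the kinase that shuts off pyruvate dehydrogenase, from few UMIs at 17.2 and 2.83 CPM, Sgk1, Srebf1, 1.88-fold higher, and Igfbp1, 1.85-fold higher. The list mixes readouts of several signals, so its count does not give the direction of any 1 of them. Immediate early genes are also induced by tissue handling, and the handling list above was higher in the Cox10-/- library too; its part was not tested.

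**Figure D5:**
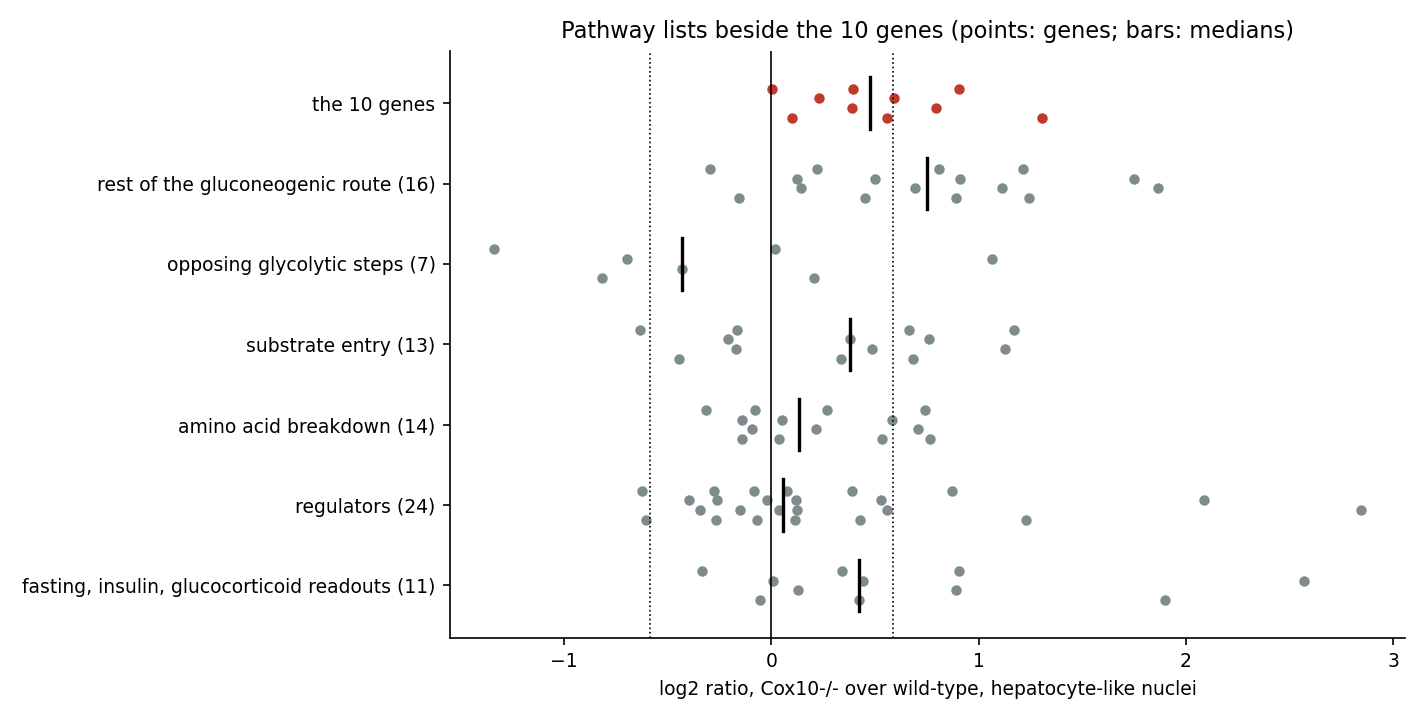
Log2 ratio, Cox10-/- over wild-type hepatocyte-like nuclei, of each gene of the 10 and of the 6 lists; points are genes, short bars the medians and dotted lines 1.5-fold either way. The medians lie at 0.48 for the 10 genes, 0.75 for the rest of the gluconeogenic route and -0.43 for the opposing glycolytic steps.

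In the Nrg1 and Areg rich nuclei 13 of 14 genes of amino acid breakdown were at least 1.5-fold lower than in the other Cox10-/- hepatocyte-like nuclei, where 27.6% of all genes were, and none higher, where 30.7% were, with Uroc1, urocanase, 6.54-fold, Hgd 6.03-fold and Prodh, proline dehydrogenase, from 4 UMIs in the rich nuclei, 5.73-fold lower. Of the further gluconeogenic enzymes 8 of 16 were lower, where 27.6% of all genes were, among them Slc25a13, a mitochondrial carrier of aspartate and glutamate, with 638 CPM in rich and 1676 CPM in other nuclei, 2.63-fold lower. Pdk4 went the other way, at 1088 CPM in the rich and 17.2 CPM in the other nuclei, 63.2-fold higher (48.3 to 83.5). It is among the genes that lead cluster 10, which holds 42 of the 43 nuclei. Of the regulators 12 of 24 were lower and 3 higher, beside 27.6% and 30.7% of all genes, with Nr0b2, the bile acid induced repressor SHP, 16.0-fold and Klf15, a fasting factor of amino acid breakdown, 5.54-fold lower.

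The genes whose levels followed each pattern most closely were sought over 12 groups of nuclei, the 3 tertiles of each library, the rich nuclei and the 5 other Cox10-/- cell types. Among 6769 genes the likeness to G6pc was greatest for Fh1, fumarate hydratase, with a Pearson r of 0.981 of log2(CPM + 10), and for C1s1 and Tedc2. Pck1 was most like Aldh1l1, Upp2 and Ces1b, each at 0.981. Among the genes most like Ppargc1a were Nos1ap at 0.965 and Zdhhc9 at 0.953. The groups come from 2 libraries and share depth and free RNA within each, so r is a description only. From nucleus to nucleus within the thinned hepatocyte-like nuclei, r between pairs of the 10 genes ran from -0.044 to 0.199 in Cox10-/- and from -0.048 to 0.065 in wild-type, too weak in such sparse counts to be a finding.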

How the data were processed

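Nuclei of 1 Cox10-/- and 1 wild-type liver were profiled on the 10x Chromium 3′ v3.1 kit, with 7000 nuclei loaded per sample per the labels' protocols. Per the submitters' processing notes Cell Ranger 7.0 and mm10 were used. The authors deposited raw UMI counts per gene and nucleus, with no normalization. Whether intronic reads were counted, and which annotation and filters were applied, is not given in the sources used here. The deposited nuclei hold 601 to 3999 genes and under 20% mitochondrially encoded UMIs. Columns were tied to samples by their WT and KO prefixes. The libraries held 5167 Cox10-/- nuclei with 14476400 UMIs (median 2291) and 5448 wild-type nuclei with 17703804 UMIs (median 2853.5).

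A nucleus was kept with 500 or more UMIs, 300 or more genes and no more than 10% mitochondrially encoded UMIs. Scrublet called 14 doublets in the Cox10-/- library and 0 in the wild-type one, so few that the calling cannot have worked, and the 14 were dropped. Clusters (scanpy 1.11.5, 2000 variable genes, 30 components, Leiden resolution 1, python 3.11.15) were made without the 10 genes and the pathway lists, and named from marker lists, with naming thresholds set after the data were seen. The 10 genes, the lists and the markers were chosen with earlier results of these data known.

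Summed UMIs of a group of nuclei were scaled to CPM by the group total. Log2 ratios had a prior of 0.5 UMI, and a gene entered with 20 or more UMIs in the 2 sums together. Intervals at 95% are exact (Poisson, Clopper-Pearson, conditional binomial) and cover counting error only. Nuclei of 1 animal are not replicates, so no test was run. All 10 genes are named, with at most 6 genes of each list by the size of the Cox10-/- to wild-type ratio and the 3 most alike genes for G6pc, Pck1 and Ppargc1a. Foxo1, Creb1 and Hnf4a, and some list genes in the zone and rich nuclei comparisons, were named outside these rules. A few genes that these rules name are not reported here. Scripts were tested on simulated counts. Alternatives included TMM (edgeR 4.0.16) and DESeq2 1.42.0 size factors, other filters, resolutions and depths. The zones and the rich nuclei without the shallow cluster, and nuclei of 5 to 10% mitochondrially encoded UMIs, were chosen after seeing the data. Coordinates are from GENCODE vM21 on GRCm38.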

Additional observations from a re-analysis of the deposited data

Results flagged for a closer look

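For 3 genes the periportal to pericentral ratio lay on opposite sides of 1 in the 2 libraries, and the difference between the libraries was not tested. G6pc had a log2 ratio of 0.44 in Cox10-/- and -0.074 in wild-type hepatocyte-like nuclei. Pcx had 0.30 in Cox10-/- and -0.051 in wild-type. Gpt2 had 0.33 in Cox10-/- and -0.11 in wild-type. None of these ratios reached 1.5-fold in either library. In the Cox10-/- library the pericentral nuclei were shallower than the periportal ones, with medians of 1457 and 4288.5 UMIs, and without the shallow cluster the ratio of G6pc was 1.25. With 1 limit of the score for both libraries the wild-type log2 ratio was 0.80 for Pcx and 0.30 for Gpt2, and with tertiles set after thinning it was 0.058 for Gpt2, so these 2 genes no longer lay on opposite sides, whereas G6pc did under each alternative run.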

How the results depend on the processing

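Of the 10 genes, 4 were at least 1.5-fold higher in Cox10-/- than in wild-type hepatocyte-like nuclei. The count was 2 with the mean over nuclei, 2 with nuclei thinned to 1000 UMIs, 1 under the stricter rule, 3 with TMM or DESeq2 factors and 5 without the shallow cluster. With all kept nuclei, which are 37.1% hepatocyte-like in Cox10-/- and 96.8% in wild-type, it was 0, with 2 genes lower, and 8 of the 10 log2 ratios were below 0, to -0.37 for Sds, -0.090 for Ppargc1a and -0.90 for Pcx. The log2 ratio of G6pc ran from 0.36 to 1.41 over the alternatives. Of 140 such values over the 10 genes, 79 moved within counting error, 59 moved beyond it and 2, both over all kept nuclei, turned a gene past 1.5-fold to the other sign. With 1 zone limit for both libraries, which left 17 pericentral wild-type nuclei, the wild-type zone counts were 6 higher and 1 lower, against 1 and 0, beside 4443 and 2146 of 10330 genes tested. Under that limit, with 7 pericentral Cox10-/- nuclei, Ppargc1a turned to a log2 of -0.25 in Cox10-/-. Without thinning, 1 gene had a larger share of positive nuclei in Cox10-/-, against 7, and at 2000 UMIs 10 did. Thinning to 2000 UMIs kept 663 of 1159 Cox10-/- and 1473 of 1493 wild-type hepatocyte-like nuclei, and only 8 of the 446 in the shallow cluster. Got1 was then nearly level, at 80.39% in Cox10-/- and 80.38% in wild-type. In the Nrg1 and Areg rich nuclei 9 genes were lower under all 5 alternatives run. No paired analysis was possible because each group held 1 library and no result comes from a test. Depth limits Slc37a4 most, with 3 UMIs in the rich nuclei.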
